A study of Mus musculus with 12 samples.

Results

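The major histocompatibility complex (MHC) class II pathway was followed through 7 of its genes over 12 RNA-seq libraries of mouse hippocampus, out of 55421 genes listed in the counts. The members were Cd74 (the invariant chain), H2-Aa, H2-Ab1 and H2-Eb1 (chains of the classical class II molecules), H2-DMa and H2-DMb1 (the chains of the peptide loading factor H2-DM) and Ciita (the class II transactivator). The 7 members were chosen by name with earlier results of these libraries in view, in which genes of the pathway had stood out in KO-Nut3 against KO-Veh, so that comparison is given here as a description and not as a test. The 12 mice fell into 4 groups of 3. WT-Veh were wild-type C57BL/6 mice injected with vehicle, and WT-Nut3 were wild-type mice injected with Nutlin-3, a small molecule that blocks the binding of p53 by MDM2. KO-Veh and KO-Nut3 were Fmr1 knockout mice, the mouse model of fragile X syndrome, given vehicle or Nutlin-3. The knockout is constitutive, so every cell type of the tissue carries it. All mice were injected at 2 months of age and their hippocampi were collected at 6 months, so the libraries describe the tissue long after the treatment had ended. Each library is 1 mouse, named by its group and animal number, and the reads that fell on genes numbered 17150820 in the shallowest library and 20040482 in the deepest.

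MHC class II molecules present peptides from engulfed proteins to CD4+ T cells. An alpha and a beta chain assemble in the endoplasmic reticulum on the invariant chain Cd74, which fills the peptide groove and steers the complex to endosomes, where cathepsins degrade it and H2-DM exchanges its last fragment for a peptide. In the healthy brain, class II is found mainly on macrophages and dendritic cells of the meninges, the perivascular spaces and the choroid plexus, and little of it is made by resting microglia or neurons. Ciita binds no DNA itself but is recruited by factors that sit on a conserved set of short promoter elements, and it has several promoters of which one is used in dendritic cells and macrophages and another responds to interferon gamma.

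The classical chains and H2-DM lie together in the MHC region of chromosome 17. In the GRCm38 build with GENCODE M21 annotation, H2-DMa (ENSMUSG00000037649) spans chr17:34119541-34139101, H2-DMb1 (ENSMUSG00000079547) chr17:34153072-34160230, H2-Ab1 (ENSMUSG00000073421) chr17:34257689-34269419 and H2-Eb1 (ENSMUSG00000060586) chr17:34305867-34316674, all on the plus strand, and H2-Aa (ENSMUSG00000036594) chr17:34282744-34287823 on the minus strand. Ciita (ENSMUSG00000022504) spans chr16:10480059-10528418 on the plus strand. Promoter stretches of classical chains are shown because class II genes are known for short elements at similar distances from their starts. RefSeq promoter windows of the same build, 300 bases around each start, were held for 4 of the 7 members, H2-Aa, H2-Eb1, H2-DMb1 and H2-DMa. Bases -100 to -31 before the start are printed for H2-Aa (chr17:34287854-34287923, minus strand) and H2-Eb1 (chr17:34305767-34305836, plus strand). Capitals mark TGATTGG, the core of the Y box bound by the factor NF-Y. In H2-Aa they also mark TGACGTCA, the element bound by CREB. In H2-Eb1 they also mark AACTGATGATGCT, the longest run that it shares with the window of H2-DMb1.

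H2-Aa: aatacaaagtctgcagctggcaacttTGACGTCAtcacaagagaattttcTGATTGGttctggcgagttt
H2-Eb1: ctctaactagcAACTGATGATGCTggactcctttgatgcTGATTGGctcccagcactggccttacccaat

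The Y-box core stood at -50 to -44 in H2-Aa, at -61 to -55 in H2-Eb1 and at -63 to -57 in H2-DMb1. Searched on both strands, TGATTGG was held by 7.82% of the 32851 windows of all genes and TGACGTCA, which reads the same on both strands, by 1.79%. The shared run was held by 3 windows, or 0.00913%, and stood at -89 to -77 in H2-Eb1 and at -92 to -80 in H2-DMb1. None of these 3 strings was found in the window of H2-DMa, which says only that these letters are absent from those bases.

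Before the members were read, the labels were checked against the counts. Fmr1, the targeted gene, was at 74.0 to 79.5 CPM (counts scaled by the TMM-adjusted library total) in the 6 WT libraries and at 28.5 to 37.3 CPM in the 6 KO libraries, with no overlap. The KO libraries thus kept 497 to 655 reads of Fmr1, and counts per gene do not show which part of the gene they cover. Its log2 fold change in KO-Veh against WT-Veh was -1.18 (SE 0.069, adjusted P = 1.76e-06, edgeR). Mdm2, the target of Nutlin-3, averaged 55.0 CPM in WT-Veh and 60.7 in WT-Nut3, while KO-Veh averaged 59.0 and KO-Nut3 averaged 60.9. The p53 target Cdkn1a averaged 5.91 and 5.87 CPM in the WT groups, and 6.04 in each KO group, and neither gene passed the threshold in any comparison. Markers of hippocampal neurons (8 genes) summed to 2651 to 3048 CPM in 11 libraries and to 1784 CPM in KO-Nut3 RH6. The 19 markers of choroid plexus epithelium summed to 160 to 228 CPM in 8 libraries, and to far more in the other 4. These were KO-Nut3 RH6 at 5261 CPM, RH8 of the same group at 717, RH13 at 7238, and WT-Nut3 RH9 at 6775. These 4 libraries thus stand apart in choroid plexus transcripts, and the fits of the members and their relations to the macrophage score are also given without the 3 highest, a choice made after seeing the data. WT-Veh RH15 stands apart in markers of monocytes and neutrophils, which summed to 29.4 CPM there and to 4.18 to 15.8 CPM elsewhere.

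All 7 members passed the filter of more than 20 reads over the 12 libraries, but most are rare. Per kilobase of exon, the scale on which genes can be compared, H2-DMa was the most abundant member in WT-Veh at 4.05 ± 0.381 CPM per kb (SD, n = 3), followed by Cd74 at 1.94 ± 1.29 and H2-Eb1 at 0.959 ± 0.891. Ciita had the lowest mean at 0.383 ± 0.0930, but H2-Aa at 0.492 ± 0.404 differed from it by less than the spread of H2-Aa. In KO-Nut3, Cd74 was at 3.79 ± 1.21 CPM per kb and H2-DMa at 3.06 ± 0.162, a difference within the spread of Cd74 between libraries. The precision is set by the reads, since Cd74 and the 3 classical chains together had 31 to 360 reads in a library and H2-DMb1 had 4 to 33.

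Cd74 (ENSMUSG00000024610, chr18:60803848-60812652, plus strand), whose protein is the chaperone of all class II chains, was at 0.896, 5.15 and 3.71 CPM in WT-Veh RH2, RH5 and RH15, at 2.84, 4.52 and 0.953 CPM in WT-Nut3 RH1, RH9 and RH14, at 1.08, 0.902 and 1.25 CPM in KO-Veh RH7, RH10 and RH16, and at 8.71, 5.10 and 5.27 CPM in KO-Nut3 RH6, RH8 and RH13. The 3 KO-Veh libraries were low and close to each other and the 3 KO-Nut3 libraries were high, while each WT group ran from the KO-Veh level to near the KO-Nut3 level. The lowest KO-Nut3 library was slightly below WT-Veh RH5, so KO-Nut3 and WT-Veh overlapped.

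H2-Aa, the alpha chain of the I-A molecule, was at 0.597, 3.57 and 1.44 CPM in WT-Veh, at 0.355, 2.78 and 0.336 CPM in WT-Nut3, at 0.723, 0.395 and 0.627 CPM in KO-Veh, and at 3.38, 2.92 and 3.35 CPM in KO-Nut3, libraries in the same order as above. The high libraries were again the 3 of KO-Nut3 with WT-Veh RH5 and WT-Nut3 RH9, and the lowest value of KO-Nut3 exceeded the highest of WT-Nut3 by little. Its partner H2-Ab1, the I-A beta chain, was at 0.299, 2.78 and 1.44 CPM in WT-Veh, at 0.710, 1.54 and 0.112 CPM in WT-Nut3, at 0.671, 0.507 and 0.798 CPM in KO-Veh, and at 3.66, 3.38 and 2.75 CPM in KO-Nut3. WT-Nut3 RH14 had only 2 reads of H2-Ab1, and KO-Nut3 lay above WT-Nut3 without overlap.

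H2-Eb1, the beta chain of the I-E molecule, was at 0.418, 3.78 and 1.39 CPM in WT-Veh, at 0.913, 4.42 and 0.336 CPM in WT-Nut3, at 0.568, 0.395 and 0.513 CPM in KO-Veh, and at 4.21, 3.49 and 2.75 CPM in KO-Nut3. Here the highest library of all was WT-Nut3 RH9, so KO-Nut3 overlapped with both WT groups. The alpha chain that would pair with it is a pseudogene in C57BL/6 mice, and H2-Ea-ps was at 0 reads in all 12 libraries.

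The 2 chains of H2-DM did not follow one pattern. H2-DMb1 was at 0.597, 1.26 and 1.13 CPM in WT-Veh, at 0.913, 1.34 and 0.841 CPM in WT-Nut3, at 0.981, 0.226 and 0.798 CPM in KO-Veh, and at 1.497, 1.203 and 1.81 CPM in KO-Nut3. Its 5 highest libraries were the same as those of Cd74 and the classical chains, although on few reads. H2-DMb1 has a near-identical neighbour, H2-DMb2, which was at 0.101 to 0.657 CPM. Reads that mapped to more than 1 place (3.07% to 3.55% of a library) were kept out of the gene counts. Reads that fit both genes may thus be missing from each, so both are uncertain.

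H2-DMa was at 15.4, 13.7 and 12.8 CPM in WT-Veh, at 12.1, 12.02 and 12.1 CPM in WT-Nut3, at 11.6, 12.6 and 13.4 CPM in KO-Veh, and at 10.1, 11.2 and 10.4 CPM in KO-Nut3. The KO-Nut3 libraries were thus the lowest of all 12, whereas they were among the 5 highest for Cd74, the classical chains and H2-DMb1. The highest library exceeded the lowest by only 1.53 times. H2-DMa shares 360 bases of exon, 10.4% of its exon length, with Brd2 on the opposite strand, and the libraries do not mark strand, so reads there could not be assigned to either gene. When reads over such overlaps were kept, its count was 2.72 times as large. The added reads may be those of Brd2, which had 44254 reads over the libraries against 2716 for H2-DMa.

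Ciita was at 2.63, 4.10 and 4.22 CPM in WT-Veh, at 4.56, 3.83 and 4.99 CPM in WT-Nut3, at 2.84, 4.45 and 3.76 CPM in KO-Veh, and at 4.33, 3.32 and 4.12 CPM in KO-Nut3. All 4 groups overlapped, and the range over the libraries was 1.90 times, against 9.72 times for Cd74, 10.6 times for H2-Aa, 13.1 times for H2-Eb1 and 32.6 times for H2-Ab1. Ciita also shares exon sequence with a gene on the other strand, Dexi, over 329 bases or 3.45% of its exon length. When reads over such overlaps were kept, the count of Ciita was 1.45 times as large, and the added reads may be those of Dexi.

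**Figure D1:**
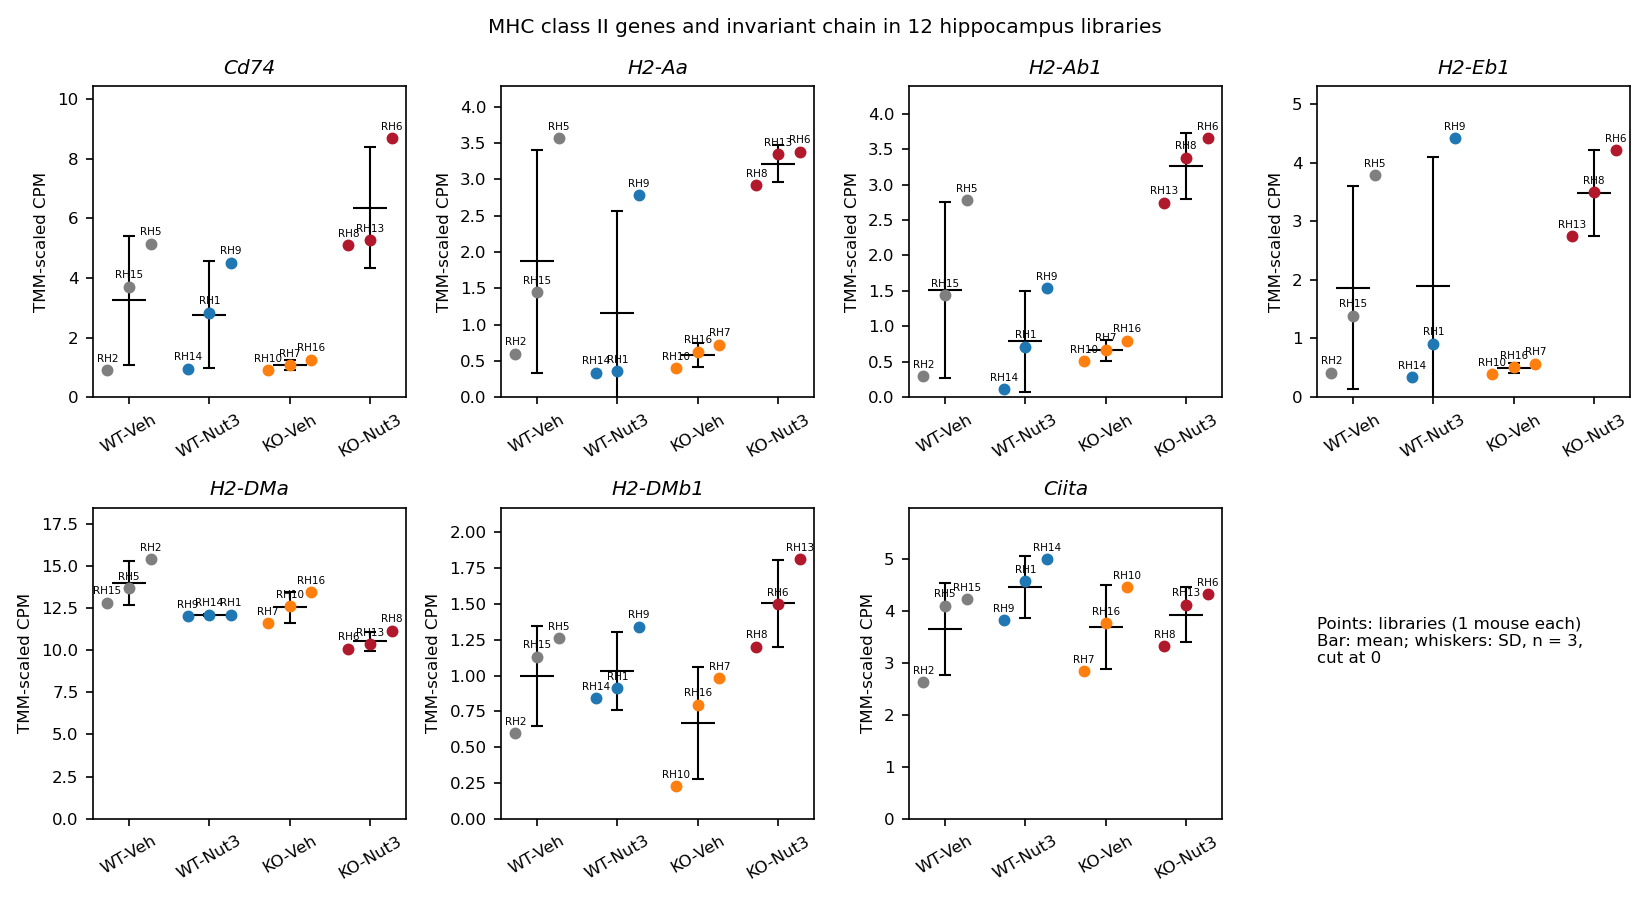
Level of each member in CPM (y axis, from 0) in the 12 libraries by group (x axis), with each point a library and bars for the group mean and SD (n = 3, cut at 0). The KO-Veh points of Cd74, H2-Aa, H2-Ab1 and H2-Eb1 lie together at 0.395 to 1.25 CPM, the KO-Nut3 points at 2.75 to 8.71 CPM, and the WT points run from 0.112 CPM (H2-Ab1, WT-Nut3 RH14) to 5.15 CPM (Cd74, WT-Veh RH5).

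The order of the group means was KO-Nut3, WT-Veh, WT-Nut3, KO-Veh for Cd74, H2-Aa and H2-Ab1, and KO-Nut3, WT-Nut3, WT-Veh, KO-Veh for H2-Eb1. Neighbours in these orders overlapped for each of the 4 genes. Cd74 averaged 6.36 ± 2.04 CPM in KO-Nut3, 3.25 ± 2.16 in WT-Veh, 2.77 ± 1.78 in WT-Nut3 and 1.08 ± 0.176 in KO-Veh (SD, n = 3). The spread within KO-Veh was smaller than that within the WT groups for each of the 4 genes, and that within KO-Nut3 was smaller for the 3 classical chains but not for Cd74. The SD of H2-Eb1 was 1.73 CPM on a mean of 1.86 in WT-Veh and 2.21 CPM on a mean of 1.89 in WT-Nut3.

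In KO-Nut3 against KO-Veh, the comparison in which the members were known to differ, the fitted log2 fold changes were 2.55 for Cd74 (SE 0.280), 2.45 for H2-Aa (SE 0.286), 2.29 for H2-Ab1 (SE 0.278) and 2.80 for H2-Eb1 (SE 0.297). They were 1.15 for H2-DMb1 (SE 0.452), -0.25 for H2-DMa (SE 0.117) and 0.09 for Ciita (SE 0.219). The threshold of an adjusted P under 0.05 was passed by 4 of the 7 members beside 0.199% of all genes tested. None was called in a fit of all 12 libraries, where 0 of all genes were, or when any 1 KO-Veh library was left out, where 6 to 7 of all genes were. With single libraries left out the log2 fold changes stayed at 2.26 to 2.68 for Cd74, 2.24 to 2.64 for H2-Aa, 2.14 to 2.45 for H2-Ab1 and 2.64 to 2.95 for H2-Eb1. The groups did not overlap for 6 members, 5 of them higher in KO-Nut3 and H2-DMa lower, beside 13.3% of all genes in either direction. Because the members were selected on this comparison, neither count is read as evidence.

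The comparison of Nutlin-3 with vehicle in wild-type mice shares no library with the one above and asks whether the same genes differ there. None of the members passed (edgeR, adjusted P = 0.998 for each), none had an unadjusted P under 0.05, and 0% of all genes tested were called, against 717 genes at an unadjusted P under 0.05. DESeq2 called no gene either. The log2 fold changes in WT-Nut3 against WT-Veh were -0.23 for Cd74 (SE 0.560), -0.68 for H2-Aa (SE 0.755), -0.92 for H2-Ab1 (SE 0.737) and 0.02 for H2-Eb1 (SE 0.796). These standard errors were more than those of the same 4 genes between the KO groups, 0.278 to 0.297, and the WT libraries spread more. Single libraries moved these values. Without WT-Nut3 RH9 the 4 estimates were -0.77, -2.42, -1.84 and -1.56, and without WT-Veh RH5 they were 0.26, 0.18, -0.15 and 1.05. None passed in any of these fits. The estimates for H2-DMb1 and Ciita were 0.05 (SE 0.361) and 0.29 (SE 0.222). H2-DMa was lower in every WT-Nut3 library than in every WT-Veh library, by a log2 fold change of -0.21 (SE 0.116) that did not pass, and the other 6 members overlapped, beside 7.52% of all genes that did not overlap in this comparison.

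Fmr1 knockout mice and wild-type mice given vehicle were compared next. This comparison and those that follow share libraries with KO-Nut3 against KO-Veh, so they are not independent of the choice of members. In KO-Veh against WT-Veh, Cd74 had a log2 fold change of -1.60 (SE 0.461), H2-Aa of -1.68 (SE 0.535), H2-Ab1 of -1.20 (SE 0.558) and H2-Eb1 of -1.92 (SE 0.602). None of the 7 members passed (adjusted P = 0.608 to 0.693 for these 4, edgeR), beside 0.0177% of all genes called. The 4 had unadjusted P-values under 0.05, as did 1627 of all 22592 genes tested. The groups overlapped for all 7 members, where 12.4% of all genes did not overlap, and WT-Veh RH2 was at the level of the KO-Veh libraries in Cd74 and the classical chains. Without WT-Veh RH5 the log2 fold changes were -1.11 for Cd74, -0.82 for H2-Aa, -0.43 for H2-Ab1 and -0.89 for H2-Eb1, so this 1 library carries much of their size. Those of H2-DMa, H2-DMb1 and Ciita were -0.15, -0.57 and 0.00 with all libraries.

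In KO-Nut3 against WT-Nut3 the log2 fold changes were 1.18 for Cd74 (SE 0.448), 1.45 for H2-Aa (SE 0.653), 2.01 for H2-Ab1 (SE 0.559) and 0.86 for H2-Eb1 (SE 0.677). No member passed (adjusted P = 0.928 for these 4, edgeR), beside 0.00443% of all genes. Cd74 and H2-Ab1 had unadjusted P-values under 0.05, as did 1101 of all 22592 genes tested. Cd74, H2-Aa and H2-Ab1 did not overlap and were higher in KO-Nut3, H2-DMa did not overlap and was lower, and 10.7% of all genes did not overlap. The estimates depend on single libraries. Leaving out WT-Nut3 RH9 gave 1.72 for Cd74, 3.19 for H2-Aa, 2.93 for H2-Ab1 and 2.44 for H2-Eb1, and leaving out WT-Nut3 RH14 gave 0.78, 1.03, 1.52 and 0.38. Cd74 stood at 0.89 without KO-Nut3 RH6, and H2-Eb1 at 0.53 without WT-Nut3 RH1. Without the 3 libraries highest in choroid plexus markers, which leaves 1 KO-Nut3 library against 2 of WT-Nut3, the 4 estimates were 1.41, 3.05, 2.98 and 2.45, with a spread that rests on the pair of WT-Nut3 libraries alone, so no call is read from them.

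The difference between the Nutlin-3 effects in knockout and wild-type mice was tested as an interaction over the 12 libraries. Its log2 estimates were 2.78 for Cd74 (SE 0.755), 3.13 for H2-Aa (SE 0.979), 3.22 for H2-Ab1 (SE 0.910) and 2.78 for H2-Eb1 (SE 1.08), and none passed (adjusted P = 0.994, edgeR) although all 4 had unadjusted P-values under 0.05. The background was 0%, with 942 genes at an unadjusted P under 0.05 and 1 gene called by DESeq2. Without the 3 libraries highest in choroid plexus markers the estimates were 3.003, 4.73, 4.19 and 4.37, and none passed. That the KO and WT effects on these genes differ is therefore not shown. With genotypes pooled, no member passed in all Nutlin-3 against all vehicle (0% of all genes with edgeR, 1647 at an unadjusted P under 0.05, and 79 called by DESeq2). None passed in all KO against all WT (0.00443% of all genes with edgeR, 1843 at an unadjusted P under 0.05). No member passed in either without those 3 libraries. In both pooled comparisons, over all 12 libraries, only H2-DMa had an unadjusted P under 0.05.

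**Figure D2:**
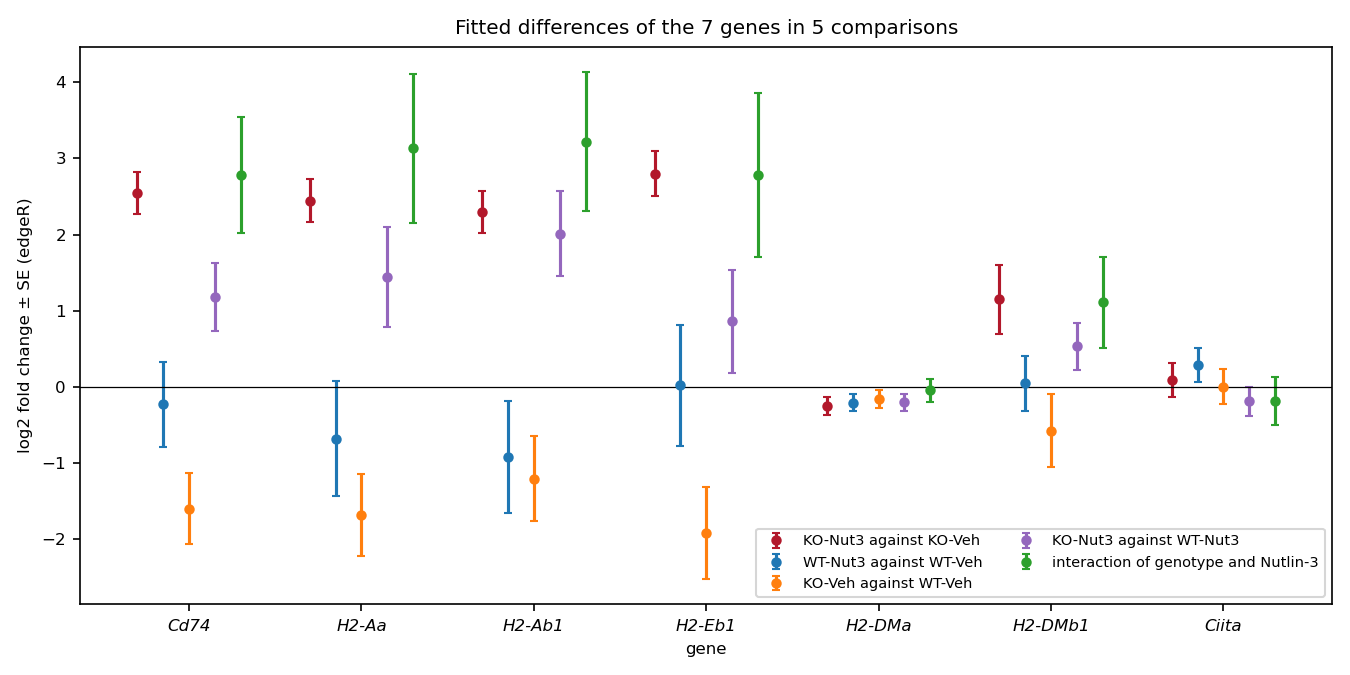
Fitted log2 fold change with its SE as a bar (y axis, edgeR) for each member (x axis), coloured by comparison, with the interaction in green. Cd74, H2-Aa, H2-Ab1 and H2-Eb1 lie at 2.29 to 2.80 in KO-Nut3 against KO-Veh, with short bars, and at -0.92 to 0.02 in WT-Nut3 against WT-Veh, with SEs of 0.560 to 0.796.

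The libraries that were high for one classical chain were high for the others. The 5 highest libraries of Cd74, H2-Aa, H2-Ab1, H2-Eb1 and H2-DMb1 were the same, namely WT-Veh RH5, WT-Nut3 RH9 and the 3 of KO-Nut3, and the next was WT-Veh RH15 in each case. Of the 22592 genes tested, 210 (0.930%) had this top 5. Against the mean log2 CPM of the other members over the 12 libraries, Pearson's r was 0.970 for H2-Eb1, 0.957 for Cd74, 0.927 for H2-Aa, 0.905 for H2-Ab1, 0.739 for H2-DMb1, 0.0658 for Ciita and -0.541 for H2-DMa. These are descriptions over 12 libraries that include the KO groups. Summed, Cd74 and the 3 classical chains reached 2.21, 15.3 and 7.98 CPM in WT-Veh, 4.82, 13.3 and 1.74 CPM in WT-Nut3, 3.05, 2.20 and 3.19 CPM in KO-Veh, and 19.97, 14.9 and 14.1 CPM in the KO-Nut3 libraries. A pair of wild-type mice, one given vehicle and the other Nutlin-3, thus had sums close to those of KO-Nut3 RH8 and RH13, and 2 other wild-type mice had sums as low as KO-Veh.

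The genes most like the members were found among 15339 other genes of at least 1 CPM on average, by Pearson's r with the mean log2 CPM of the members. The libraries include the KO groups on whose difference the members were selected, so genes that differ there can rank high for that alone. The 10 highest were Gstm2 (0.962), Slc13a4 (0.950), Smad6 (0.944), Slc16a12 (0.940), Etnk2 (0.940), Igf2 (0.936), Bmp6 (0.935), Phldb2 (0.933), Col18a1 (0.931) and Dennd4c (0.929). In KO-Nut3 against KO-Veh all of these passed the threshold except Smad6, Etnk2, Phldb2 and Dennd4c. Slc13a4, a sulfate transporter, is in the choroid plexus list used below and Igf2, a growth factor secreted by meninges and choroid plexus, is in the fibroblast list. Most markers of border macrophages, B cells and T cells lie below the level that candidates needed and could not be among the 10. Slc13a4 was at 25.1 CPM in WT-Veh RH5, 26.1 CPM in WT-Nut3 RH9 and 29.4 to 37.3 CPM in KO-Nut3, and at 2.41 to 7.28 CPM in the other 7 libraries. Its 5 highest libraries were thus those of the classical chains. The gap below them was not shared by H2-Ab1, which was at 1.54 CPM in WT-Nut3 RH9 and 1.44 CPM in WT-Veh RH15. In WT-Veh RH5 Slc13a4 departed from its list, since Folr1 stood at 0.630 CPM, Clic6 at 0.578 and Tmem72 at 0.210 there, all at the level of the low libraries.

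Since class II in brain tissue is mostly a trait of macrophages at its borders, the members were set beside markers of the cell types that a hippocampal dissection can hold. In bulk tissue, more cells of a type and more RNA per cell cannot be told apart. The 10 markers of border macrophages, the cells of the meninges, perivascular spaces and choroid plexus stroma, summed to 23.1, 36.5 and 29.8 CPM in WT-Veh, 30.1, 32.3 and 22.4 CPM in WT-Nut3, 27.7, 23.7 and 28.9 CPM in KO-Veh, and 37.7, 49.7 and 29.98 CPM in the KO-Nut3 libraries. The most abundant was Stab1, at 16.5 to 27.6 CPM. Mrc1, the mannose receptor that defines these cells, was at 6.60, 7.45 and 3.13 CPM in KO-Nut3 and at 2.89, 1.63 and 3.53 CPM in KO-Veh, and it reached 5.20 CPM in WT-Veh RH5. None of the 10 passed in KO-Nut3 against KO-Veh, where all 10 log2 fold changes were above 0 with a median of 0.98 beside 0.00 for all genes tested, and that of Mrc1 was 1.09.

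The summed CPM of Cd74 and the classical chains was 0.0959, 0.419 and 0.268 times the summed border macrophage CPM in WT-Veh, 0.160, 0.410 and 0.0775 times in WT-Nut3, 0.110, 0.0926 and 0.110 times in KO-Veh, and 0.529, 0.300 and 0.471 times in KO-Nut3. The ratio was thus higher in all KO-Nut3 libraries than in all KO-Veh libraries and spread over nearly that whole range in the WT groups. Its numerator holds genes selected on the difference between the KO groups, so the gap between them is not read as evidence. Stab1 made up 55.4% to 78.6% of the macrophage sum. Without it the ratio was 0.364 to 0.433 in KO-Veh, 0.672 in KO-Nut3 RH8, 1.2 in RH6 and 1.58 in RH13. In the WT libraries it then ran from 0.295 (WT-Nut3 RH14) to 1.19 (WT-Nut3 RH9), so KO-Nut3 RH8 lay within the WT range.

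Across the 12 libraries, the log2 CPM of single members was set against the border macrophage score, the mean log2 CPM of the 10 markers. Because 6 of these libraries are the KO groups on whose difference the members were selected, and the score differs between the same groups, the correlations are given as a description with no P-value. Pearson's r and Spearman's rho were 0.86 and 0.87 for Cd74, 0.80 and 0.80 for H2-Aa, 0.84 and 0.93 for H2-Ab1, 0.85 and 0.90 for H2-Eb1, and 0.70 and 0.80 for H2-DMb1. For H2-DMa r was -0.56 and for Ciita 0.07.

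Without the 2 libraries farthest from the median score, r was 0.893 for Cd74, 0.799 for H2-Aa, 0.801 for H2-Ab1, 0.882 for H2-Eb1 and 0.820 for H2-DMb1. Without KO-Nut3 RH6 and RH13 and WT-Nut3 RH9, the libraries highest in choroid plexus markers, r over the other 9 was 0.858, 0.811, 0.836, 0.880 and 0.700 in the same order. Animal numbers up to RH8 and from RH9 were also taken apart, a division known from earlier work on these data that crosses all groups, and r within the lower and the upper numbers was 0.880 and 0.875 for Cd74, 0.817 and 0.849 for H2-Aa, 0.946 and 0.711 for H2-Ab1, 0.910 and 0.853 for H2-Eb1, and 0.852 and 0.867 for H2-DMb1. With the microglia score r lay between -0.47 and 0.47 and rho between -0.49 and 0.57 for the 7 members. Within the lower animal numbers this r ran from -0.77 (H2-DMb1) to 0.83 (H2-DMa), with Cd74 at -0.71. Within the upper numbers it ran from -0.31 (H2-Eb1) to 0.33 (H2-DMb1), with Cd74 at -0.05. The choroid plexus score falls into clusters of 9 and 3 libraries, so it was related only within the 9, where r was 0.46 to 0.52 and rho 0.15 to 0.48 for Cd74 and the classical chains. Without the 2 libraries of the 9 farthest from the median, r was 0.0995 for Cd74, -0.0953 for H2-Aa, -0.199 for H2-Ab1 and 0.0449 for H2-Eb1, so it rested on those libraries.

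The correlations were also computed in the 6 wild-type libraries alone, which took no part in the selecting comparison. This was done after the relation had been seen over all 12, which include these 6, so it too is a description with no P-value. There the border macrophage score had r = 0.987 with H2-DMb1, 0.963 with Cd74, 0.929 with H2-Eb1, 0.884 with H2-Ab1 and 0.816 with H2-Aa, and rho of 1, 0.94, 0.94, 0.89 and 0.77. For Ciita r was 0.392 and for H2-DMa -0.445. A score of 10 markers of meningeal and stromal fibroblasts had r = 0.857 with Cd74, 0.847 with H2-Aa, 0.932 with H2-Ab1, 0.877 with H2-Eb1 and 0.707 with H2-DMb1 in the wild-type libraries, and 0.0963 with H2-DMa and -0.0026 with Ciita. Over the 12 libraries the fibroblast score had r of 0.785, 0.820, 0.900 and 0.834 with Cd74, H2-Aa, H2-Ab1 and H2-Eb1, and over the 9 without the libraries highest in choroid plexus markers 0.826, 0.894, 0.936 and 0.932. Within animal numbers up to RH8 and from RH9 these were 0.811 and 0.825 for Cd74, 0.887 and 0.883 for H2-Aa, 0.937 and 0.984 for H2-Ab1, and 0.920 and 0.835 for H2-Eb1. With H2-DMb1 the fibroblast score had r of 0.525 over the 12 libraries and 0.500 over the 9. Within the lower and the upper numbers it was 0.793 and 0.503. Which tissue component carries the class II transcripts was not tested.

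**Figure D3:**
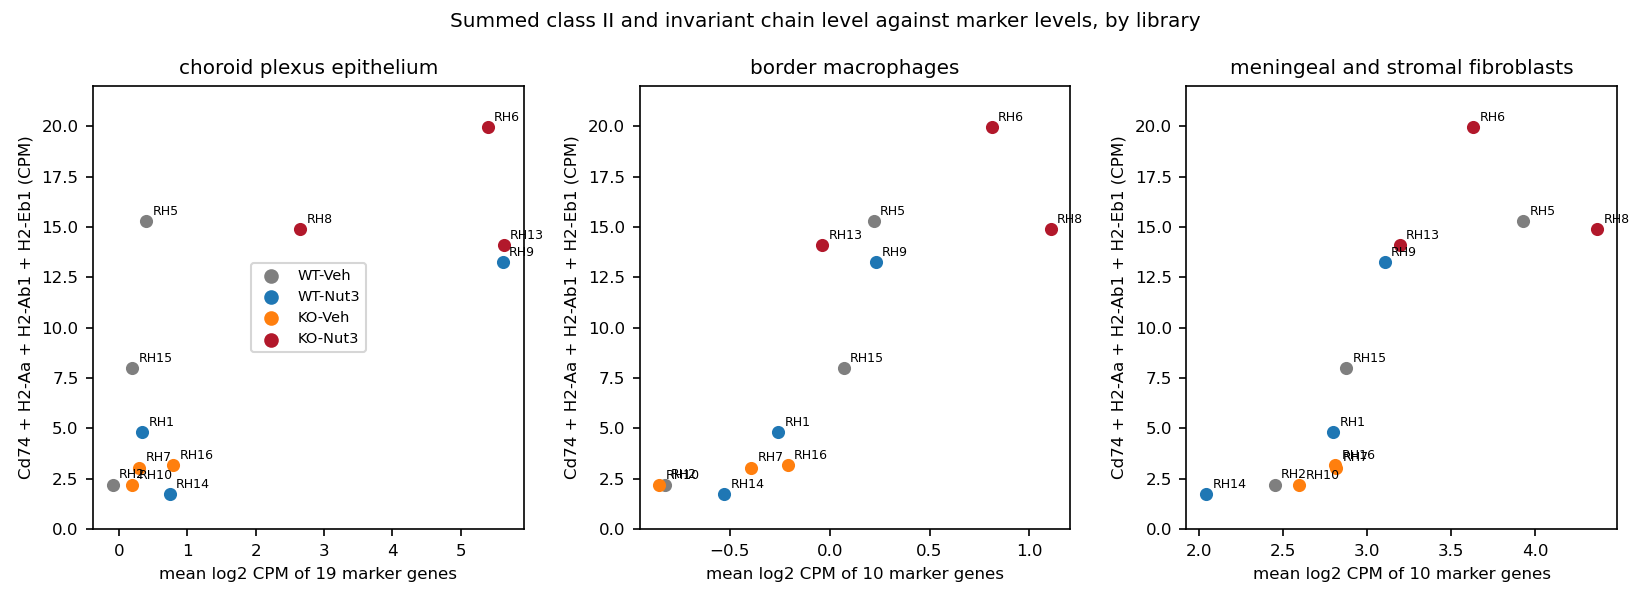
Summed level of Cd74, H2-Aa, H2-Ab1 and H2-Eb1 (y axis, CPM) against the mean log2 CPM of choroid plexus, border macrophage and fibroblast markers (x axes, left to right), with a point for each of the 12 libraries, coloured by group and labelled by animal number. WT-Veh RH5, at 15.3 CPM, lies among the low libraries on the choroid plexus axis and among the high ones on the fibroblast axis, and KO-Nut3 RH13, at 14.1 CPM, is at the high end of the first axis and in the middle of the other two.

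The choroid plexus was the other tissue set beside the members. Its 19 markers had a median log2 fold change of 4.48 in KO-Nut3 against KO-Veh, where 6 of 19 passed, all higher, among them Folr1, Kcne2, Slc4a5 and Tmem72. The most abundant, Ttr, the thyroxine carrier of choroid plexus epithelium, was at 3091, 313.5 and 4520 CPM in KO-Nut3 RH6, RH8 and RH13, at 3.15 to 15.2 CPM in KO-Veh, at 4215 CPM in WT-Nut3 RH9 and at 5.15 to 18.2 CPM in the other 5 WT libraries. In WT-Nut3 against WT-Veh the median of the 19 was 4.56 with none of 19 called, with the summed level of RH9 far above that of the other WT libraries. WT-Veh RH5 had 15.3 CPM of class II transcripts with Ttr at 9.56 CPM, and KO-Nut3 RH8 had 14.9 CPM of them with Ttr more than an order of magnitude below that of KO-Nut3 RH13. The 4 libraries highest in Ttr were among the 5 highest in class II. The other of these 5 was WT-Veh RH5, whose class II sum was below only that of KO-Nut3 RH6, at 19.97 CPM. The part of choroid plexus tissue in the class II values was not tested.

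With RH6, RH13 and WT-Nut3 RH9 left out, which leaves KO-Nut3 RH8 against the 3 KO-Veh libraries, the log2 fold changes of Cd74, H2-Aa, H2-Ab1 and H2-Eb1 were 2.24, 2.31, 2.35 and 2.81, close to those with them. KO-Nut3 then has a single library, which is assumed to vary like the KO-Veh libraries. That library, RH8, still summed to 717 CPM of choroid plexus markers, against 167 to 221 CPM in KO-Veh. Its border macrophage sum of 49.7 CPM and fibroblast sum of 272 CPM were the highest of the 12 libraries. The fit thus does not separate the group from these markers. When the fit over the 12 libraries held the choroid plexus score they were 1.61, 0.66, 1.30 and 1.19, with the border macrophage score 1.25, 1.16, 0.78 and 0.93, and with the fibroblast score 1.65, 1.34, 1.05 and 1.29, and none of the 4 was called in these fits. With both the choroid plexus and the fibroblast score they were 0.75 for Cd74, -0.61 for H2-Aa, -0.18 for H2-Ab1 and -0.38 for H2-Eb1. The scores move with the groups over the 12 libraries, so the parts of group and score cannot be told apart.

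Markers of other cells that could carry class II were also read. The 10 fibroblast markers summed to 134, 231 and 155 CPM in WT-Veh, to 141, 153 and 111 CPM in WT-Nut3, to 144, 143 and 157 CPM in KO-Veh, and to 162, 272 and 158 CPM in KO-Nut3, with a median log2 fold change of 1.15 in KO-Nut3 against KO-Veh. Igf2 alone of them passed there, with a log2 fold change of 2.75 (SE 0.274), and the most abundant, Pdgfra, was at 51.8 to 62.4 CPM in KO-Nut3 and 49.8 to 56.9 CPM in KO-Veh. The markers did not move as one. Aldh1a2, the retinoic acid synthetic enzyme found in meninges, was at 14.9 CPM in WT-Veh RH5, at 10.1 and 21.7 CPM in KO-Nut3 RH6 and RH8, and at 1.40 to 4.06 CPM in the other 9 libraries. Igf2 was also high in WT-Nut3 RH9, at 3.83 CPM, and in KO-Nut3 RH13, at 4.28 CPM, while Dcn, a matrix proteoglycan gene, was lowest of all 12 libraries in KO-Nut3 RH6, at 20.4 CPM against 43.1 to 56.8 CPM in KO-Veh. Aldh1a2 and Dcn were named after their values were seen. The part of these tissues in the class II values was not tested. The 12 microglia markers summed to 296 to 377 CPM over all libraries and had a median log2 fold change of -0.06, with none called. The 7 tested markers of dendritic cells had a median of 0.18, the 5 of B cells 0.33, the 3 of T and NK cells 0.30, and the 7 of monocytes and neutrophils 2.17, and none of these was called. Among T and NK markers, Cd3d, Cd3e and Cd3g had 0 to 4 reads in each library, Cd4 had 1 to 11 and Trac, the most abundant, 4 to 15. Among B cell markers, Ms4a1 had 0 to 4 reads, Cd79a 0 to 10 and Ighm, the most abundant, 128 to 288. Over the 12 libraries the monocyte and neutrophil score had r of 0.54 to 0.63 and rho of 0.73 to 0.77 with Cd74 and the classical chains, given as a description, and the part of these cells was not tested either. The 7 endothelial markers summed to 233 to 250 CPM in KO-Nut3, 190 to 213 CPM in KO-Veh, 227 to 243 CPM in WT-Veh and 213 to 235 CPM in WT-Nut3, with no overlap between the KO groups. In KO-Nut3 against KO-Veh their median log2 fold change was 0.25, that of 5 red blood cell genes was 0.42 with all 5 above 0, and that of 8 genes of hippocampal neurons was -0.15 with all 8 below 0. KO-Nut3 RH6 carried much of the last 2. In RH6, RH8 and RH13 the red blood cell genes summed to 84.7, 48.2 and 65.2 CPM, against 44.3 to 61.7 CPM in KO-Veh. The neuron genes summed to 1784, 2680 and 2683 CPM, against 2754 to 2764 CPM in KO-Veh. None of the endothelial, red blood cell and neuron genes was called, and their part in the class II values was not tested.

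The rest of the pathway was read from lists of its steps, for KO-Nut3 against KO-Veh as a description. Of 5 other class II chains 3 were measured well enough to be tested, none passed, and their median log2 fold change was 0.17. H2-Ob, the beta chain of the H2-DM inhibitor H2-O, had a log2 fold change of 1.01 (SE 0.705), and H2-Eb2 had 0 to 2 reads per library. The 7 genes of the factors that assemble on class II promoters (the RFX complex, NF-Y and Creb1) had a median of -0.04 with none called, and Creb1, the most abundant, stood at -0.02 and Rfx5 at 0.15. Neither these genes nor Ciita differed past the threshold in any comparison.

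The 10 genes of invariant chain processing and class II turnover had a median of 0.11 with none called, and the cathepsin gene Ctsb, the most abundant, stood at 0.12. Ifi30, the lysosomal thiol reductase, had the highest estimate of the list at 0.65. Of the interferon gamma pathway, Ifng was at 0 reads in all 12 libraries and the other 6 genes had a median of -0.03, with the kinase gene Jak1, the most abundant, at -0.11. The 3 costimulatory genes had a median of 0.35, with Cd86 at 0.35 and Cd80 at 0.60, and none passed. MHC class I, the partner system that nearly all cells express, had 9 of 9 log2 fold changes above 0 with a median of 0.36 and none called, and its light chain B2m stood at 0.22 and H2-K1 at 0.51. The 11 tested interferon-stimulated genes had a median of 0.11 with none called, Ifit3 at 0.41 and Bst2 at 0.68. In WT-Nut3 against WT-Veh no gene of any list passed, and the medians were -0.10 for border macrophages and -0.49 for fibroblasts.

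**Figure D4:**
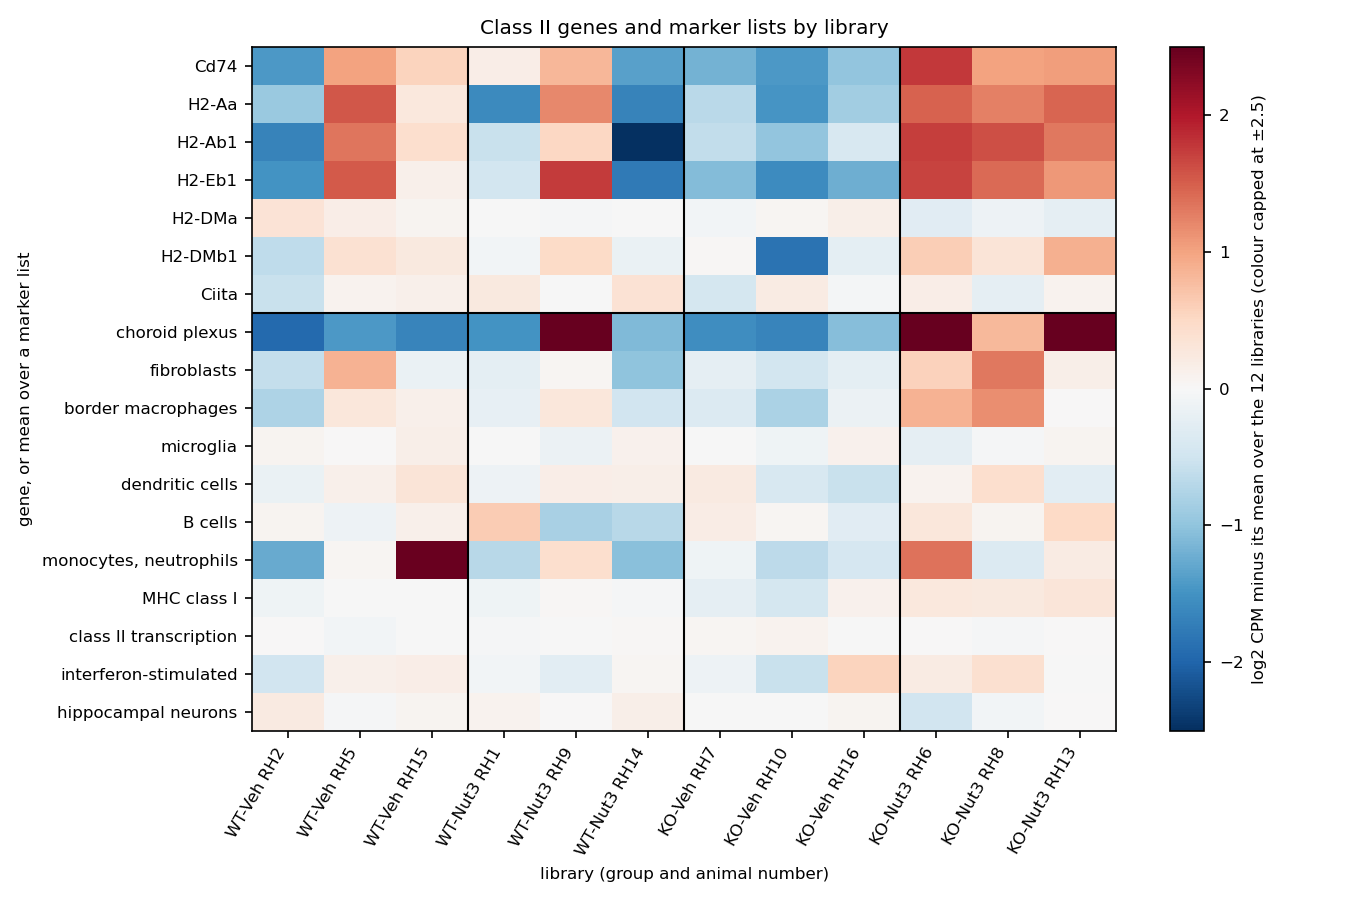
Log2 CPM minus its mean over the 12 libraries (colour, capped at 2.5 either way) for the members and for the mean of each gene list (rows), by library (columns, lines between groups). Cd74, H2-Aa, H2-Ab1 and H2-Eb1 are red in WT-Veh RH5, WT-Nut3 RH9 and all 3 KO-Nut3 libraries, while the rows of H2-DMa, Ciita, microglia and the class II transcription genes stay pale throughout.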

How the data were processed

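Counts per gene were deposited by the authors for each of the 12 libraries, made with STAR on mm10 (per the methods and the submitters' processing notes) from poly(A) RNA and not normalized. Unstranded counts were used, as each strand held about equal shares of the reads, and all columns mapped to a labelled sample. Of 55421 genes, the 22592 with more than 20 counts over the 12 libraries were tested. TMM factors and edgeR 4.0.16 (R 4.3.3, quasi-likelihood F test, two-sided) were applied to the 6 libraries of each comparison, or to all 12 for the interaction and the pooled comparisons, with Benjamini-Hochberg adjustment over all genes tested and a threshold of 0.05. Each SE is the size of the log2 fold change over the square root of F. Log2 CPM used a prior count of 1. Scores are mean log2 CPM of a list. DESeq2 1.42.0, DESeq2 size factors, other filters, a term for animal number, score terms, and leaving out each library were alternatives. P-values measure the spread between these mice only.

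The members and lists were chosen with earlier results of these data known. Genes named are the members, Fmr1, Mdm2, Cdkn1a, the 10 genes most like the members, and of each pathway list those past the threshold, the most abundant, and any near-identical to a member. Other genes named in the text were picked after their values were seen.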

Additional observations from a re-analysis of the deposited data

How the results depend on the processing

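In KO-Nut3 against KO-Veh, 4 members were called and none (0) in a fit of all 12 libraries or with the choroid plexus, border macrophage, fibroblast, or choroid plexus and fibroblast terms, and the number called was 0 to 4 with single libraries left out, 0 without any one KO-Veh library and 4 without any one KO-Nut3 library. Of all 22592 genes, 65, 266 and 41 were called without KO-Nut3 RH6, RH8 and RH13. With the number term 3 members were called, beside 20 of these genes. Testing every gene with a count gave 3 members in KO-Veh against WT-Veh (Cd74, H2-Aa, H2-Eb1), 1 in KO-Nut3 against WT-Nut3 (H2-Ab1), 4 in the interaction and 2 in all Nutlin-3 against all vehicle (Cd74, H2-Eb1), all from 0, where 272, 38, 291 and 539 of the 35930 genes so tested were called. Leaving out the 3 libraries of highest choroid plexus score gave 4 from 0 in KO-Nut3 against WT-Nut3, but this sets 1 library against 2, assumes that the lone one varies like them, and calls 316 of 22592 genes, so it is not read as a result. Single libraries left out gave 0 to 1 in KO-Veh against WT-Veh (Cd74, without WT-Veh RH2) and 0 to 1 in KO-Nut3 against WT-Nut3 (H2-Aa, without WT-Nut3 RH9). In these 2 fits 5 and 7 of all 22592 genes were called. The causes were not tested, beyond the fewer libraries or different genes that each setting has.

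Signs that turned were as follows. With choroid plexus and fibroblast terms, KO-Nut3 against KO-Veh gave -0.61 for H2-Aa, -0.18 for H2-Ab1 and -0.38 for H2-Eb1, and KO-Nut3 against WT-Nut3 gave -0.11 for Cd74, -0.10 for H2-Aa, -0.98 for H2-Eb1 and -0.019 for H2-DMb1. For H2-Eb1 the latter comparison gave -0.21 with the border macrophage and -0.47 with the fibroblast term. Ciita in KO-Nut3 against KO-Veh was -0.0078 when strands were summed and -0.14 without the libraries of highest choroid plexus score. In WT-Nut3 against WT-Veh, Cd74 was 0.22 with the fibroblast term, H2-Eb1 was -0.15 with the number term, -1.27 with the choroid plexus term, -0.51 with both terms and -1.56 without the high libraries, and H2-DMb1 was -0.041, -0.29, -0.16 and -0.19 in these. Ciita in KO-Veh against WT-Veh was -0.14 with the number, -0.0017 with the border macrophage, -0.013 with the fibroblast and -0.010 with both terms. The interaction of H2-DMa was 0.0071 with the border macrophage term, 0.053 with strands summed and 0.033 without the high libraries. With single libraries left out, the ranges were -0.070 to 0.25 for Ciita in KO-Nut3 against KO-Veh, -0.77 to 0.26 for Cd74, -2.42 to 0.18 for H2-Aa, -1.56 to 1.05 for H2-Eb1 and -0.21 to 0.24 for H2-DMb1 in WT-Nut3 against WT-Veh, -0.18 to 0.18 for Ciita in KO-Veh against WT-Veh, -0.13 to 0.017 for the interaction of H2-DMa, and -0.268 to 0.287 for r of Ciita with border macrophages. Relations of the members to the choroid plexus, border macrophage and microglia scores were also tested by permutation of r. Of these, 5 were under the threshold, all with border macrophages over 12 libraries, and 4 to 5 with single libraries left out. The fibroblast relations of Cd74 and the classical chains, adjusted apart, were also under it. By rho, so were their relations to the monocyte and neutrophil score. None of these is read as evidence because the selecting groups are among the libraries.

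Counts over all genes moved further. KO-Nut3 against KO-Veh had 45 calls, 245 with DESeq2, 544 with every gene, 20 with the number term, 131 without the high libraries and 0 in each fit of all 12 libraries. It had 6, 6 and 7 without KO-Veh RH7, RH10 and RH16, and 266 without KO-Nut3 RH8. WT-Nut3 against WT-Veh had 0, 249 with every gene, 11 with the number term and 2 with choroid plexus and fibroblast terms. KO-Veh against WT-Veh had 4, and 22, 272 and 21 with DESeq2, every gene and the number term, and 1 in the fit of all libraries. KO-Nut3 against WT-Nut3 had 1, 7 with DESeq2, 38 with every gene and 316 without the high libraries. DESeq2 and every gene gave 1 and 291 from 0 in the interaction, 79 and 539 from 0 in all Nutlin-3 against all vehicle, and 43 and 239 from 1 in all KO against all WT. With single libraries left out the counts ran from 2 to 11 in KO-Veh against WT-Veh, from 0 to 7 in KO-Nut3 against WT-Nut3, from 0 to 19 in all Nutlin-3 against all vehicle and from 1 to 10 in all KO against all WT. The fibroblast terms, the summed strands and the leaving out of the high libraries were chosen after seeing the data. No paired analysis was possible because the groups share no animal number. Depth limits the values of the rarer members, since every KO-Veh library held fewer than 20 reads of H2-Aa, H2-Ab1, H2-Eb1 and H2-DMb1 each.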
